A study of Mus musculus with 6 samples.

Results

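Tissue macrophages that carried the lineage reporter tdTomato were compared with tissue macrophages of the same libraries in which no tdTomato transcript was found. The cells were chosen from a deposited droplet-based single-cell matrix of 39048 barcodes by their transcript counts, in unique molecular identifiers (UMIs). A barcode was kept with at least 8000 UMIs (25788 barcodes), at most 10% mitochondrial UMIs (25758), at least 1 UMI of the macrophage colony-stimulating factor receptor gene Csf1r (22352) and at least 3 UMIs of the mannose receptor gene Mrc1 and the hyaluronan receptor gene Lyve1 together (10634). It was dropped with more than 2 of 6 Kupffer cell genes or more than 3 of 7 microglia genes detected, which left 9432 tissue macrophages. Of these, 2720 held at least 3 tdTomato UMIs and are called labelled, 4426 held none and are called unlabelled, and 2286 with 1 or 2 UMIs stayed out of the comparison.

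The study traced macrophage lineage cells from which osteoclasts, which resorb bone, can arise, and GEO lists 3 groups with 2 samples each. In the first, Cx3cr1CreER; R26tdTomato embryos had received 4-hydroxytamoxifen at E9.5 (E, embryonic day). In the second, Csf1r-Mer-iCre-Mer; Csf1r-EGFP; R26tdTomato embryos had received it at E8.5, and from both, macrophage and monocyte lineage cells of the whole body were collected at E14.5. The third was total bone marrow from wildtype C57BL/6 mice 2 months old, for which no reporter is named. The barcodes' endings, 1 to 4, correspond to no label. The cells are therefore described as libraries 1 to 4, and driver lines and ages were not compared. Labelled cells were compared with unlabelled cells of the same library. In each library 18.6 to 38.5% of the selected cells held at least 3 tdTomato UMIs, so none consisted only of mice without the reporter. Whether some adult marrow cells are among the barcodes was not tested. The p-values measure only the spread between these 4 libraries, which may be technical, and the sources used here do not say how many embryos a library holds. Of the selected cells' barcode sequences, 43 occurred in more than 1 library.

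In both embryonic lines the drug switches on Cre in cells that use the Cx3cr1 or the Csf1r promoter at that time, and these cells and their descendants keep tdTomato. Macrophages of the embryo arise from yolk sac progenitors and, later, from monocytes of the fetal liver, which carry the chemokine receptor Ccr2 on their way into tissues. Resident macrophages that express Mrc1, Lyve1, Folr2 and Timd4 take up dying cells, recycle iron and secrete growth factors. An unlabelled cell can descend from a progenitor that was not using the promoter or from one in which recombination did not take place, and the data cannot tell these apart.

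tdTomato transcripts were abundant in a minority of the tissue macrophages of each library. At least 3 UMIs were found in 18.6% of the 2834 cells of library 1 (exact binomial 95% interval 17.2 to 20.1), 25.5% of the 2469 of library 2 (23.8 to 27.2), 36.9% of the 1617 of library 3 (34.6 to 39.3) and 38.5% of the 2512 of library 4 (36.6 to 40.4). The pooled share was 28.8%, and it was 22.9% after every cell was thinned to 8000 UMIs. Intervals here and below cover counting error only. Labelled cells held a median of 10, 10, 8 and 10 tdTomato UMIs in libraries 1 to 4. The level of tdTomato in the sums of labelled cells was 663, 732, 523 and 587 UMIs per 1000000 (CPM). Since tdTomato chose the classes, these values describe them and were not tested.

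A background level was read from cells that should lack the reporter. Mesenchymal cells, taken as cells with at least 10 collagen UMIs and no Csf1r or Ptprc UMI, are not expected to use the macrophage drivers. Of 312 such cells, 23.4% held at least 1 tdTomato UMI and 2.56% (1.11 to 4.99) at least 3, at a median of 12070.5 UMIs per cell against 15497 in the tissue macrophages. Cells with 1 or 2 tdTomato UMIs therefore lay in the range of the background, whereas the share with at least 3 was above it in each library, where mesenchymal cells gave 0 of 118, 4.08% of 49, 1.79% of 56 and 5.62% of 89 (0 of 118 allows up to 3.08%).

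**Figure D1:**
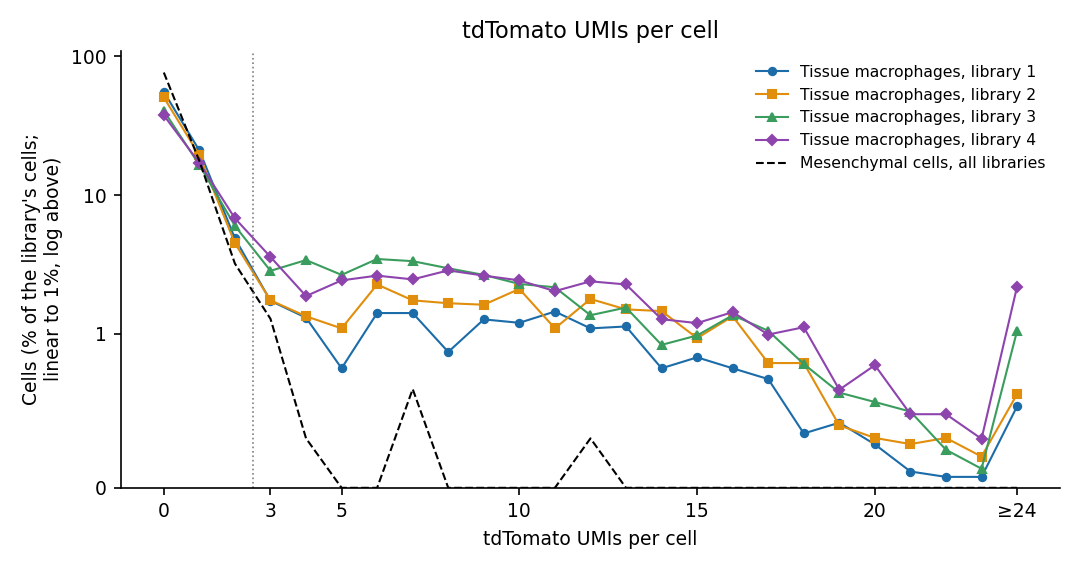
tdTomato UMIs per cell (x axis, 24 or more pooled) against the share of the library's cells in percent (y axis, linear to 1% and logarithmic above), for the tissue macrophages of libraries 1 to 4 and for 312 mesenchymal cells of all libraries. Most cells hold 0 to 2 UMIs, and right of the dotted line at 3 UMIs the tissue macrophages form a shoulder that extends past 15 UMIs, where the mesenchymal curve is at 0.

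Labelled and unlabelled cells differed in depth and in the genes of the selection, which is given as a description. The median depth was 13449, 13175, 15411 and 15765 UMIs in labelled cells of libraries 1 to 4 and 14892, 14890, 16080 and 16599 in unlabelled cells, so labelled cells were the shallower class in all 4 libraries. At the top the order differed in the pooled cells, where 8.60% of labelled against 3.95% of unlabelled cells had over 30000 UMIs. By library these shares were 4.74, 2.70, 12.9 and 11.9% in labelled and 3.24, 3.20, 5.03 and 5.40% in unlabelled cells. Library 2 thus kept the order of the medians. The median mitochondrial share was 2.73, 2.71, 2.75 and 2.66% in labelled and 2.56, 2.45, 2.49 and 2.53% in unlabelled cells, without overlap, and its part in the results was not tested. Mrc1 stood at 894, 960, 846 and 728 CPM in labelled and 745, 765, 748 and 633 CPM in unlabelled cells. Lyve1 stood at 682, 722, 794 and 638 CPM against 461, 432, 506 and 352 CPM, with no overlap between the classes. Csf1r ranged from 853 to 1207 CPM in labelled and from 800 to 1009 CPM in unlabelled cells. Timd4, a receptor for dying cells used here among the Kupffer genes, ranged from 31.0 to 39.0 and from 22.5 to 39.9 CPM. Equal numbers of cells per library and depth, and per library, depth and Mrc1 and Lyve1 level, were therefore also compared.

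At the edges of the rule, 38.0% of the 242 cells less than 500 UMIs above the minimum depth and 21.5% of the 669 cells with exactly 3 UMIs of Mrc1 and Lyve1 were labelled. The share was 31.4% of 656 cells with exactly 2 Kupffer genes and 33.1% of 1155 with exactly 3 microglia genes. Just outside, 34.2% of 149 cells with 3 Kupffer genes and 42.8% of 376 with 4 microglia genes would have been labelled.

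UMI counts were summed per library and class and tested with edgeR's quasi-likelihood test with the library as a block, Benjamini-Hochberg adjustment and an adjusted p threshold of 0.05. The 8 sums held 8310608 to 25613854 UMIs. Of 12252 genes tested, 2597 (21.2%) differed, 1302 (10.6%) higher and 1295 (10.6%) lower in labelled cells, with 646 higher and 53 lower by over 1.5-fold. With library sizes not scaled by TMM (trimmed mean of M values) the split was 1471 higher and 765 lower. Leaving out library 1, 2, 3 or 4 gave 1569, 1625, 1392 and 1538 genes. At matched depth 2860 of 11440 genes (25.0%) differed, 12.3% higher and 12.7% lower, and 2154 of the 2597 were called in the same direction and none in the opposite one. Matched on depth, Mrc1 and Lyve1, 2125 of 11249 genes (18.9%) differed, 9.48% higher and 9.41% lower. Of the 2597, 1657 were called there in the same direction and 1 in the opposite one. In the comparison of all cells, the values of the classes did not overlap over the 4 libraries for 14.1% of genes tested. For 41.2% the direction was the same in all 4.

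Transcripts of other cell types moved with the label and are given before the genes. Of labelled cells 12.6% (343 of 2720) and of unlabelled cells 5.90% (261 of 4426) were other-type cells, meaning that 1 of 9 marker lists of other cell types held over 0.1% of their UMIs (over 1% for the erythroid list). In library 3 the shares were 13.6% and 4.12%, and in library 4 they were 14.8% and 5.71%. Among labelled cells the counts were 106 by neural, 73 by mesenchymal, 61 by erythroid, 52 by mast cell or basophil and 49 by neutrophil markers. Among the 4426 unlabelled cells they were 91, 60, 64, 7 and 24 in the same order. The 52 labelled cells by mast cell or basophil markers were 1, 1, 22 and 28 in libraries 1 to 4. Labelled other-type cells had a median of 20059 UMIs against 14009 in the remaining labelled cells. The summed mast cell or basophil list lay between 104 and 1186 CPM in labelled and between 37.9 and 73.7 CPM in unlabelled cells, with 71.6% of the labelled UMIs in 1% of the cells, and 1 of its 8 markers was at 0 in unlabelled cells. The summed neutrophil list lay between 36.2 and 1859 CPM against 41.5 to 913 CPM, with no marker at 0. No doublet caller was run. Values without the other-type cells are therefore given beside the lists whose counts moved most, from a comparison added after the data were seen. In it 3155 of 11599 genes (27.2%) differed, 13.3% higher and 13.9% lower.

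Of the 12 largest increases by the naming rule (a mean of 20 CPM or more, and 1 direction over the 4 libraries both with all cells and at matched depth) 3 were mast cell genes, 1 was a neutrophil gene, 1 a stefin gene and 4 neural genes. The mast cell protease gene Cpa3 stood at 21.9, 36.6, 392 and 330 CPM in labelled and 10.6, 11.3, 20.6 and 25.2 CPM in unlabelled cells of libraries 1 to 4. Its log2 fold change (labelled minus unlabelled) was 2.97 ± 0.44 (SE, edgeR adjusted p = 0.00334), and without the other-type cells it was -0.02. The chymase gene Cma1 went from 2.76 to 0.05, the histidine decarboxylase gene Hdc from 3.21 to 0.18, the neutrophil calgranulin gene S100a9 from 1.83 to 0.02 and the stefin gene BC100530 from 1.27 to 0.00. S100a9 did not pass the test without library 4 (1.73, edgeR adjusted p = 0.0631), and BC100530 had 1.91 without library 3 and 0.56 without library 4. These cells were removed by such markers, so for Cpa3, Cma1 and S100a9 the loss is in part built into the comparison, and which cells the transcripts came from was not tested. The neural genes Sox11, Stmn2, Tubb3 and Nnat and the surface antigen gene Cd24a had log2 fold changes of 1.35, 1.18, 1.09, 1.02 and 1.29, and of 1.18, 0.90, 0.82, 0.78 and 1.06 without the other-type cells. The remaining increases of the 12, Spp1 and Pmp22, did not shrink.

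**Figure D2:**
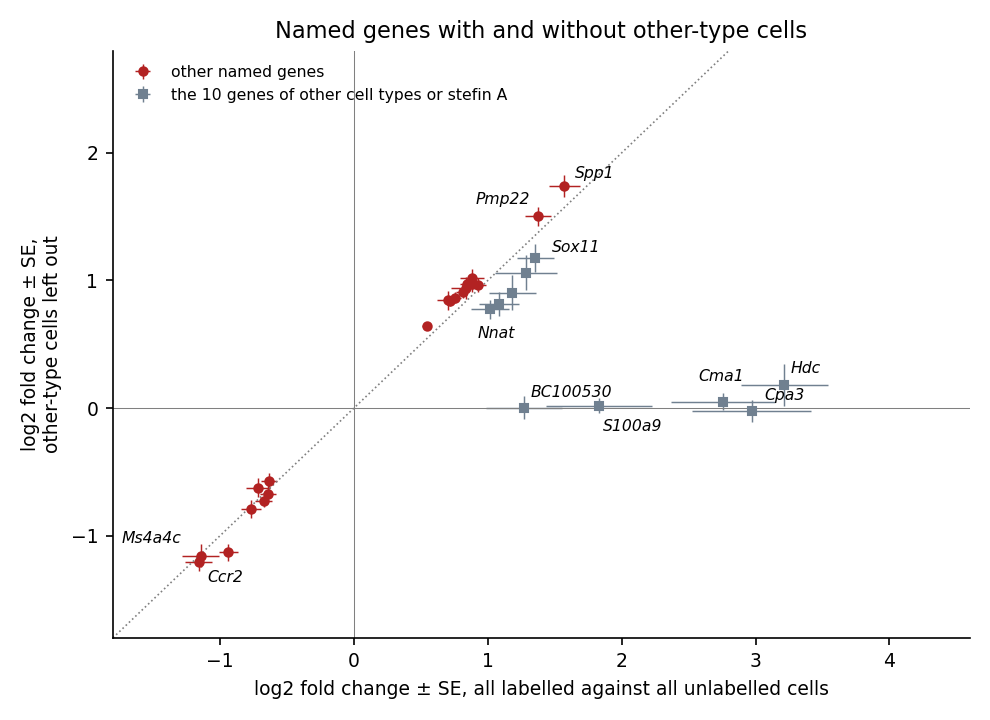
log2 fold change ± SE of 30 named genes in all labelled against all unlabelled cells (x axis) and with the other-type cells left out (y axis), with the line of equality dotted. Cma1, Cpa3, Hdc, S100a9 and BC100530 lie between -0.02 and 0.18 on the y axis, whereas Spp1, Pmp22, Ccr2 and Ms4a4c keep their place near the line.

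Spp1 and Pmp22 were higher in labelled cells with and without the other-type cells. Spp1 (chromosome 5, 104435118 to 104441050, GRCm38), which encodes the secreted phosphoprotein osteopontin, stood at 627, 457, 437 and 347 CPM in labelled and 179, 192, 110 and 144 CPM in unlabelled cells of libraries 1 to 4. Every labelled sum was above every unlabelled one. The log2 fold change was 1.57 ± 0.12 (SE, edgeR adjusted p = 0.000175). The cells contributed unevenly, since 1% of labelled cells held 48.5% of their Spp1 UMIs. Pmp22 (chromosome 11, 63128982 to 63159547), which encodes a small membrane protein known from myelin, stood at 92.2, 105, 69.5 and 63.6 CPM against 38.8, 29.8, 30.3 and 27.7 CPM. Its log2 fold change was 1.37 ± 0.10 (edgeR adjusted p = 0.000162), and 8.92% of its labelled UMIs lay in 1% of the cells.

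With the other-type cells left out the same rule named, besides Spp1 and Pmp22, Pltp, Epor, Slc40a1, Smim1, Fcna, Cyr61, Ltc4s, Bmp2, Npr1 and Cd9 as the 12 largest increases. All 12 were also past the threshold in the full comparison. Their log2 fold changes there ran from 0.70 for Npr1, the receptor of atrial natriuretic peptide, to 1.57 for Spp1. In none of them did the classes overlap, against 14.1% of all genes without overlap. Since the rule picks large changes of 1 direction in all 4 libraries, this is in part built in and is a description only. The erythropoietin receptor gene Epor stood at 35.8, 40.6, 32.3 and 37.5 CPM in labelled and 20.5, 21.7, 15.4 and 21.6 CPM in unlabelled cells. Its log2 fold change was 0.88 ± 0.06 (SE), with 12.1% of its labelled UMIs in 1% of the cells. Smim1, a small membrane protein gene known from red cells, had a log2 fold change of 0.93 ± 0.06, and the tetraspanin gene Cd9 of 0.72 ± 0.05.

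Genes of resident macrophages were mostly higher in labelled cells. Of 18 listed residency genes, 13 were higher and 1 was lower in labelled cells, where 10.6% of all genes were higher and 10.6% lower. The median log2 fold change was 0.29 against 0.00 over all genes tested. The folate receptor gene Folr2 stood at 328, 348, 270 and 285 CPM in labelled and 225, 233, 196 and 190 CPM in unlabelled cells, without overlap, and its log2 fold change was 0.55 ± 0.03 (SE, edgeR adjusted p = 0.000135). Ltc4s, the leukotriene C4 synthase gene, stood at 227, 235, 144 and 152 against 134, 136, 88.0 and 76.3 CPM, with a log2 fold change of 0.81 ± 0.05. Fcna, the gene of the lectin ficolin A, had 0.83 ± 0.11 and Gas6, the gene of a ligand that bridges dying cells to their receptors, 0.57 ± 0.04. The abundant genes moved less, with log2 fold changes of 0.32 for the selenium carrier gene Selenop, 0.27 for the platelet factor 4 gene Pf4 and 0.34 for the scavenger receptor gene Stab1. Cd163, the haemoglobin scavenger receptor gene, was low (1.82 to 5.36 CPM over the 8 sums) and had a log2 fold change of 0.96 ± 0.16. The lower gene, named after its values were seen, was F13a1, the coagulation factor XIII gene, at -0.11 ± 0.03 (edgeR adjusted p = 0.0293). It was at -0.01 (edgeR adjusted p = 0.827) at matched depth, and it did not pass the test without library 1, 3 or 4 (edgeR adjusted p = 0.124, 0.107 and 0.127). At matched depth and with other-type cells left out, where 28.2% of 11009 genes differed (13.9% higher), 15 of the 18 were higher and none lower. Matched on depth, Mrc1 and Lyve1, 11 of the 18 were higher and 1 lower, against 9.48% and 9.41% of 11249 genes. The median was 0.23 there.

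Iron and haem handling was represented by 12 tested genes, of which 6 were higher and none lower, with a median log2 fold change of 0.22. Of all genes 10.6% were higher and 10.6% lower. Slc40a1 (chromosome 1, 45908068 to 45926523, minus strand) encodes ferroportin, the exporter through which macrophages return iron. It stood at 309, 344, 221 and 235 CPM in labelled and 159, 172, 129 and 150 CPM in unlabelled cells of libraries 1 to 4. The classes did not overlap, and the log2 fold change was 0.85 ± 0.06 (SE, edgeR adjusted p = 0.00014). The haem oxygenase gene Hmox1 stood at 882, 921, 615 and 713 CPM against 535, 613, 519 and 524 CPM, with the smallest gap in library 3, and had a log2 fold change of 0.50 ± 0.07. Blvrb, a biliverdin reductase gene, had 0.37 ± 0.03 and Hpgd, the gene of a prostaglandin-degrading enzyme placed in this list, 0.55 ± 0.05. The ferritin genes Ftl1 and Fth1, the most abundant of the list, had log2 fold changes of 0.07 and -0.04 and did not pass the test. The erythroid markers listed as other-type genes were also higher in labelled cells, 7 of 10 with a median of 0.91, and 66.3% of their labelled UMIs lay in 1% of the cells. Without the other-type cells 7 of 9 tested erythroid markers were still higher, against 13.3% of all genes, with a median of 0.33. There the iron and haem list had 9 of 12 genes higher, against the same share, and a median of 0.29. The part of erythroid transcripts in the iron and haem list was not tested.

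**Figure D3:**
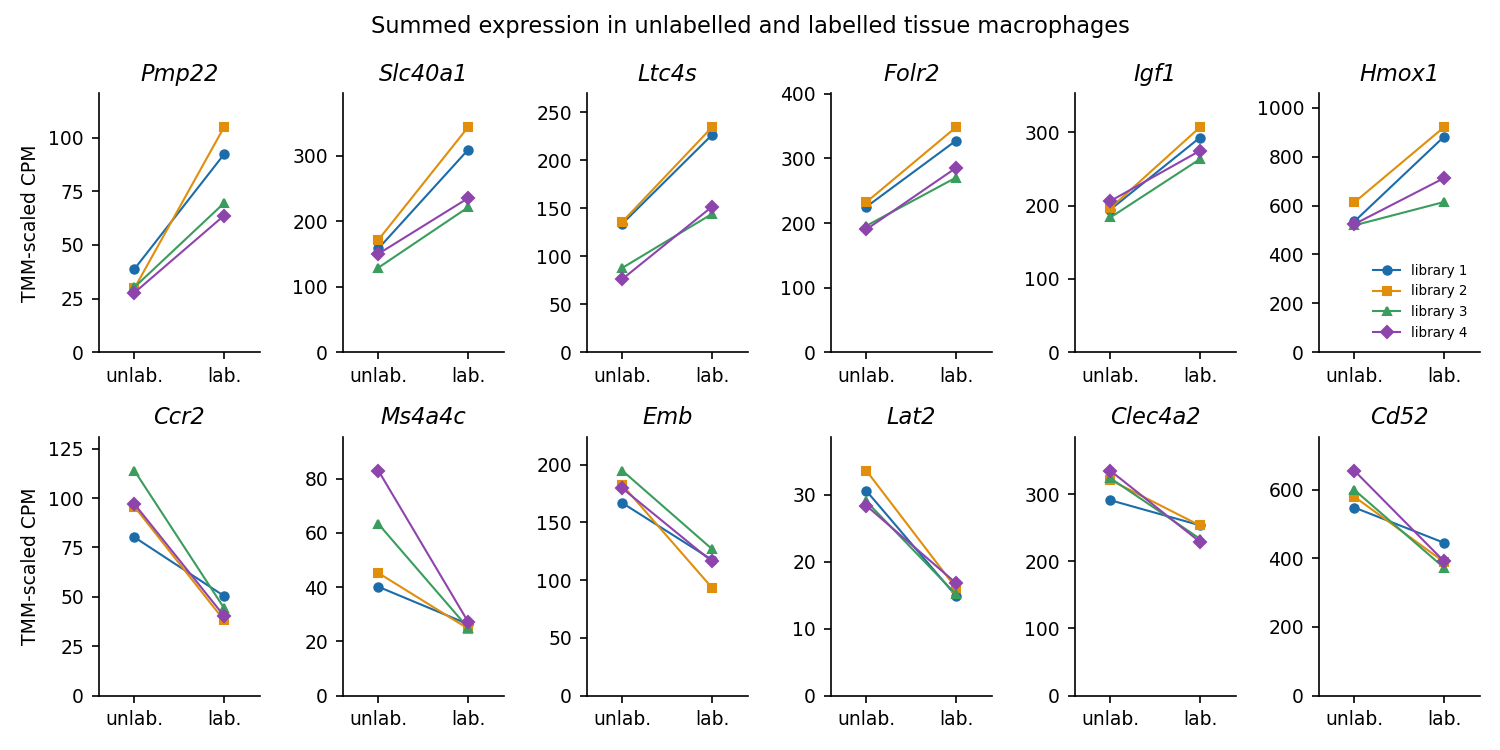
TMM-scaled CPM of 12 genes (y axes, starting at 0) in the summed unlabelled and labelled tissue macrophages (x axis), with 1 line for each of libraries 1 to 4. The 6 genes of the upper row rise and the 6 of the lower row fall from unlabelled to labelled cells in all 4 libraries.

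Several other groups of macrophage function were higher in labelled cells as counts of their members. Each count is read against the 10.6% of all genes that were higher. Of 17 secreted growth factor genes 7 were higher and none lower (median log2 fold change 0.39). The 7 include Spp1, described above. They also include Wnt5a, Pdgfb and Gdf15, which were low, at means of 1.69, 3.12 and 7.95 CPM (edgeR adjusted p = 0.0202, 0.036 and 0.0467). Without other-type cells, where 13.3% of all genes were higher, 10 of 15 were higher (median 0.64). Among them were the insulin-like growth factor gene Igf1, at 293, 307, 264 and 275 against 195, 197, 184 and 206 CPM, and the bone morphogenetic protein gene Bmp2, at 57.5, 60.1, 78.3 and 82.6 against 34.1, 32.5, 50.0 and 49.7 CPM. Their log2 fold changes were 0.54 ± 0.04 and 0.75 ± 0.05 (SE). Of 14 efferocytosis and scavenging genes 8 were higher and 1 lower (median 0.20). The scavenger collectin gene Colec12 had a log2 fold change of 0.59 ± 0.04 and the fatty acid and thrombospondin receptor gene Cd36 of 0.46 ± 0.06, whereas the class A scavenger receptor gene Msr1 had -0.38 ± 0.06. Cd163, Gas6 and Stab1 stand both in this list and among the residency genes.

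Lipid handling genes, against the same 10.6% of all genes, were higher for 6 of 14 and lower for none (median log2 fold change 0.19). The cholesterol exporter gene Abca1 stood at 232, 230, 179 and 176 CPM in labelled and 154, 144, 114 and 134 CPM in unlabelled cells and had a log2 fold change of 0.58 ± 0.05 (SE, edgeR adjusted p = 0.000324). Abcg1, another cholesterol exporter gene, had 0.49 ± 0.07, the phospholipid transfer protein gene Pltp 0.88 ± 0.09 and Apoe, the most abundant of the list, 0.23 ± 0.03. Of 20 lysosome genes 8 were higher and 1 lower (median 0.09). The acid lipase gene Lipa had 0.36 ± 0.04, and the cathepsin genes Ctsl and Ctsd had 0.33 ± 0.04 and 0.24 ± 0.04. At matched depth and without other-type cells 17 of the 20 were higher and none lower, against 13.9% and 14.2% of all genes.

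Complement genes were split, with 3 of 11 higher and 3 lower, against 10.6% of all genes higher and 10.6% lower. The C1q chain genes C1qa and C1qc had log2 fold changes of 0.29 ± 0.05 and 0.20 ± 0.04 (SE), and C1qb, which encodes the other chain of the same protein, had -0.07 ± 0.04 (edgeR adjusted p = 0.32). Without library 1, C1qc had 0.19 and did not pass the test (edgeR adjusted p = 0.0602). Of 6 Fc receptor genes 1 was higher and 3 were lower, against the same shares. The higher one was Fcgrt, the gene of the neonatal Fc receptor, at 0.37 ± 0.04. The lower ones were all Fcgr genes, among them Fcgr2b and Fcgr4 at -0.36 ± 0.04 and -0.49 ± 0.06. Fcgr2b and Fcgr4 lie close together on chromosome 1 and resemble each other in part of their sequence. The sources used here do not say how reads shared between them were counted.

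The 12 largest decreases by the rule were Ccr2, Ms4a4c, Lat2, Pilra, BC035044, Ifi203, Emb, Kcnab2, Tlr1, Shmt1, Ifitm3 and Cd52. Ccr2 (chromosome 9, 124101950 to 124113557), the gene of the receptor with which monocytes follow the chemokine Ccl2, stood at 50.4, 38.2, 44.4 and 40.4 CPM in labelled and 80.2, 95.6, 114 and 96.9 CPM in unlabelled cells of libraries 1 to 4. No labelled sum reached an unlabelled one, and the gap was smallest in library 1. The log2 fold change was -1.16 ± 0.10 (SE, edgeR adjusted p = 0.000412), and it was -1.32 at matched depth and -1.20 without other-type cells. Ms4a4c (chromosome 19, 11404770 to 11427246), a membrane protein gene of the Ms4a cluster, stood at 26.4, 24.7, 25.0 and 27.3 against 40.1, 45.2, 63.2 and 82.9 CPM. Its level was nearly equal in the labelled sums and varied over the unlabelled ones, and its log2 fold change was -1.14 ± 0.14. Lat2, the gene of an adaptor of immune receptor signalling, stood at 14.9, 16.1, 15.2 and 16.8 against 30.6, 33.6, 29.0 and 28.4 CPM (-0.94 ± 0.07). Emb, the embigin gene, stood at 118, 93.5, 127 and 116 against 167, 182, 195 and 180 CPM (-0.68 ± 0.07), and Cd52, a leukocyte surface antigen gene, at 445, 389, 373 and 391 against 548, 579, 599 and 655 CPM (-0.57 ± 0.06).

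The Ccr2 difference was also seen in the share of cells. After thinning to 8000 UMIs, at least 1 Ccr2 UMI was found in 11.4, 9.22, 11.7 and 10.2% of labelled and in 22.7, 24.7, 27.6 and 27.1% of unlabelled cells of libraries 1 to 4. Mesenchymal cells, which should lack Ccr2, gave 2.24% (exact binomial 95% interval 0.907 to 4.57), so both classes lay above the background. Unthinned, the shares were 15.4% of labelled and 32.1% of unlabelled cells, at median depths of 14565.5 and 15351.5 UMIs. Among cells without any Ccr2 UMI, 1350 of 11641 genes (11.6%) differed, 5.87% higher and 5.73% lower. There the log2 fold changes were 1.29 for Spp1, 1.12 for Pmp22, 0.69 for Slc40a1, 0.34 for Folr2, -0.87 for Ms4a4c and -0.83 for Emb, each past the threshold, and 0.09 for Pf4, which was not (edgeR adjusted p = 0.182).

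Other genes of monocytes followed Ccr2 in part, and the counts depended on the cells compared. Of 19 listed monocyte genes, 6 were lower (Ccr2, Ms4a4c, Emb, Cd52, Ly6e and S100a4) and 4 higher (Hp, Ifitm6, Fn1 and Vcan). Of all genes 10.6% were lower and 10.6% higher, and the list's median log2 fold change was 0.14. It was -0.14 at matched depth, with 8 lower and 4 higher. Without other-type cells it was 0.03, with 5 of 18 lower and 6 higher. At matched depth as well, 8 of 17 were lower and 2 higher, against 14.2% and 13.9% of all genes (median -0.18). Matched on depth, Mrc1 and Lyve1, 4 of 18 were lower and 6 higher (median 0.135). Among 9 genes that led an unnamed myeloid cluster in earlier results of these same cells, and are therefore not independent evidence, 6 were lower and none higher (median -0.39). The C-type lectin receptor gene Clec4a2 stood at 254, 253, 234 and 229 CPM in labelled and 291, 321, 324 and 335 CPM in unlabelled cells, with a log2 fold change of -0.39 ± 0.05 (SE, edgeR adjusted p = 0.00248). Clec4a1 and Clec4a3, its neighbours on chromosome 6, had -0.38 ± 0.06 and -0.40 ± 0.06, the inhibitory lectin gene Clec12a had -0.55 ± 0.04 and the cytokine signalling inhibitor gene Socs3 -0.56 ± 0.07. The Clec4a genes resemble each other in sequence, and the sources used here do not say how reads shared between them were counted. Among cells without a Ccr2 UMI, Clec4a3 (-0.17, edgeR adjusted p = 0.0535) and Socs3 (-0.24, edgeR adjusted p = 0.105) missed the threshold.

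Counts of lower genes in the sensing and antigen presentation lists varied, and are read against the 10.6% of all genes that were lower. The chemokine receptor gene Ccr1 stood at 131, 155, 191 and 193 CPM in labelled and 189, 224, 258 and 251 CPM in unlabelled cells, so that it was lower within each library although the ranges overlapped, and its log2 fold change was -0.47 ± 0.04 (SE, edgeR adjusted p = 0.000294). Of 11 Toll-like receptor genes and partners 2 were lower and none higher, and 1 was lower and 1 higher without other-type cells. The lower ones included Tlr1, a receptor for bacterial lipopeptides, at -0.63 ± 0.06. Interferon-induced genes went both ways, with 5 of 13 lower, above that share, and 2 higher (median log2 fold change -0.04). Ifitm3, the gene of an antiviral membrane protein, stood at 463, 401, 363 and 449 against 556, 585, 637 and 762 CPM (-0.60 ± 0.08), and Oasl2 had -0.46 ± 0.08. Of 8 genes of class II antigen presentation 1 was lower, H2-DMa at -0.44 ± 0.09 (edgeR adjusted p = 0.00978), and without library 3 it did not pass the test (-0.38, edgeR adjusted p = 0.0519).

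Proliferation genes were lower in labelled cells. Of 16 S phase genes 13 were lower and none higher, where 10.6% of all genes were lower, with a median log2 fold change of -0.26. Mcm5 and Mcm7, which encode subunits of the replicative helicase, had -0.36 ± 0.04 and -0.36 ± 0.04 (SE, edgeR adjusted p = 0.000623 and 0.000765), and Mcm5 stood at 94.1, 92.8, 107 and 105 CPM in labelled and 120, 126, 136 and 132 CPM in unlabelled cells. Of 16 genes of the G2 or M phase 9 were lower and none higher (median -0.19), among them Birc5, the survivin gene, at -0.31 ± 0.06. At matched depth 15 of the S phase and 14 of the G2 or M phase genes were lower. Summed over the G2 or M list, thinned cells held 14.1, 12.6, 16.0 and 15.2 UMIs in labelled and 17.0, 16.2, 17.8 and 17.3 UMIs in unlabelled cells. Cells with at most 2 such UMIs made up 20.7% of labelled and 17.3% of unlabelled cells. No phase was assigned to single cells.

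Glycolysis genes were lower for 8 of 16, against 10.6% of all genes, and higher for none (median log2 fold change -0.17). The abundant members changed little in size, with Gapdh at -0.16, Pkm at -0.18 and Ldha, the lactate dehydrogenase gene, at -0.18. Ldha did not pass the test without library 1, 2 or 4 (edgeR adjusted p = 0.169, 0.112 and 0.0687).

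The count of osteoclast genes past the test depended on the cells compared. Of 15 receptors and regulators of osteoclast precursors 2 were higher and 1 lower, against 10.6% and 10.6% of all genes, and the median log2 fold change was 0.02. Without other-type cells 7 were higher and 2 lower, against 13.3% and 13.9% of all genes, with a median of 0.09. Matched on depth, Mrc1 and Lyve1, 7 were higher and none lower, against 9.48% and 9.41% of 11249 genes, with a median of 0.09. Tnfrsf11a, named after its values were seen, encodes RANK, the receptor of the osteoclast differentiation factor. It stood at 34.5, 37.0, 39.9 and 38.8 CPM in labelled and 36.9, 32.6, 44.6 and 43.2 CPM in unlabelled cells, and the ranges overlapped. Its log2 fold change was -0.06 ± 0.06 (SE, edgeR adjusted p = 0.55). Cx3cr1, the gene of the fractalkine receptor and of 1 of the Cre drivers, stood at 338, 369, 587 and 566 against 332, 315, 600 and 580 CPM (0.05 ± 0.05, edgeR adjusted p = 0.543), and the macrophage transcription factor gene Spi1 had -0.05 ± 0.04 (edgeR adjusted p = 0.465). Against 10.6% of all genes higher and 10.6% lower, 2 of 11 osteoclast effector genes were higher and none lower. They were Car2, a carbonic anhydrase gene, at 1.82 ± 0.39 with 80.3% of its labelled UMIs in 1% of the cells, and Mmp9, a gelatinase gene, at 1.04 ± 0.13 with 55.9%. Car2 stood at 12.5 and 26.2 CPM in labelled cells of libraries 1 and 2 and at 85.3 and 125 CPM in those of libraries 3 and 4, and without library 3 or 4 it did not pass the test (edgeR adjusted p = 0.0737 and 0.0584). Of 16 macrophage transcription factor genes 1 was higher and 1 lower, below the 10.6% of all genes for each direction. Maf, a factor of resident macrophages, was at -0.10 ± 0.04 (edgeR adjusted p = 0.118).

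The fetal growth list had 7 of 13 genes higher and 2 lower (median log2 fold change 0.61), against 10.6% of all genes higher and 10.6% lower. The higher ones included the imprinted genes H19 (0.38 ± 0.07, SE) and Cdkn1c, a cell cycle inhibitor gene (0.88 ± 0.09), for which 30.1% and 44.2% of the labelled UMIs lay in 1% of the cells. The lower ones were the RNA-binding protein genes Igf2bp1 (-0.41 ± 0.05) and Igf2bp3 (-0.23 ± 0.04), which were spread over more cells, with 8.14% and 5.92% in 1% of them. Without the other-type cells the list median was 0.37. Mesenchymal markers, 7 of 9 of which were higher (median 0.96), moved with this list and their part in it was not tested.

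**Figure D4:**
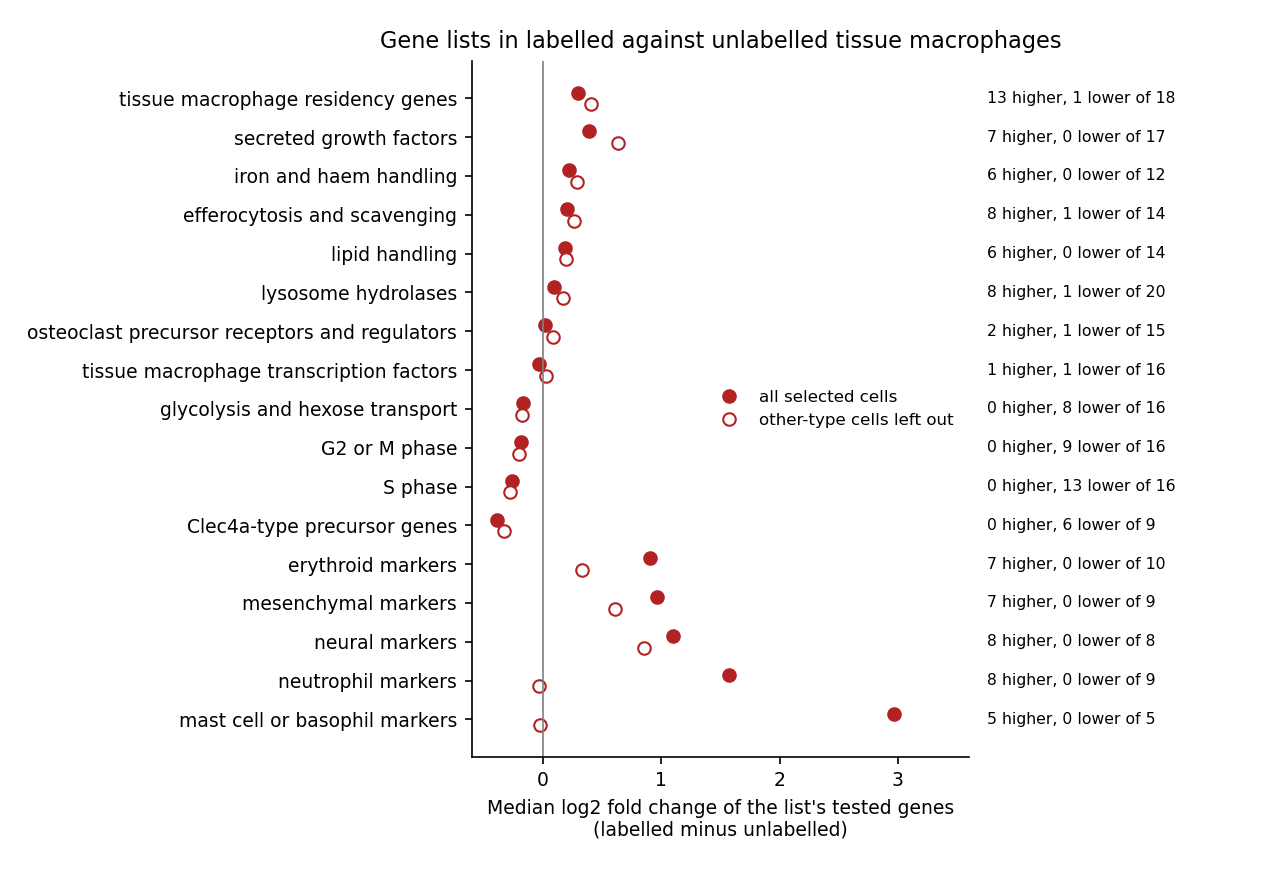
Median log2 fold change of the tested genes of 17 lists (x axis), for all labelled against all unlabelled cells (filled) and with other-type cells left out (open), with the counts of genes past the threshold at the right. The macrophage lists lie within 0.7 of 0 with and without the other-type cells, whereas the mast cell or basophil and neutrophil lists fall from 2.97 and 1.57 to about 0.

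Over all 39 lists, 193 of 390 tested genes outside the selection rule passed the threshold, 124 higher and 69 lower. Of all genes tested 21.2% passed, 10.6% higher and 10.6% lower, and the counts below are read against these shares. Without other-type cells the shares of all genes were 13.3% higher and 13.9% lower, and at matched depth as well 13.9% and 14.2%. Lists not yet described were as follows, with no test of their own. Of 13 inflammatory mediator genes 1 was higher and 2 lower, but 5 were higher and 1 lower without other-type cells, and 7 and 1 at matched depth as well. Of 17 immediate early and stress genes 5 were higher, Klf4 with 0.43 ± 0.08 (SE) among them. Without other-type cells 9 of 17 were higher, and 13 of 16 at matched depth as well, with none lower. Of 8 Ms4a genes 2 were higher and 3 lower, Ms4a7 with 0.44 ± 0.05 against Ms4a6c with -0.28 ± 0.05. Of 8 chemokine receptor genes 1 was higher and 2 lower. Of 11 progenitor genes 4 were higher and 1 lower, the lower one being Cd93 at -0.73 ± 0.07. Of 8 stefin A and cystatin genes 7 were higher, and 2 were without the other-type cells. Of the Kupffer and microglia markers outside the selection rule, 2 of 3 and 5 of 5 were higher. Of 3 Langerhans-lineage markers 1 was higher. Of 8 hepatocyte, 3 megakaryocyte and 3 dendritic cell markers none was past the threshold in the full comparison, 1 of 7 endothelial markers was higher, and of 3 B cell markers 1 was higher and 1 lower. Of 8 neural and 5 mast cell or basophil markers all tested ones were higher, as were 8 of 9 neutrophil markers.

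The classes were also read along the number of tdTomato UMIs, as a description pooled over the libraries. Depth differed between the bins and was not matched. The median was 15351.5 UMIs per cell at 0, 16689 at 1, 18293 at 2, 15114.5 at 3 and 13767.5 at 4 tdTomato UMIs. It was 13520 at 5 to 9, 14764 at 10 to 19 and 18064.5 at 20 or more. Ccr2 stood at 92.4 CPM in cells with 0, 111 with 1, 121 with 2 and 129 with 3 tdTomato UMIs, then at 80.3 with 4, 39.3 with 5 to 9, 26.7 with 10 to 19 and 19.6 CPM with 20 or more. Cells with 2 (517 cells) and 3 UMIs (228 cells), on both sides of the threshold, had pooled levels of 121 and 129 CPM, and the level fell from 3 to 4 and again from 4 to 5 to 9 UMIs. Both steps were downward in each of the 4 libraries, with 150, 165, 109 and 113 CPM at 3 UMIs and 89.8, 87.6, 78.4 and 72.6 CPM at 4. Ms4a4c likewise fell from 74.9 to 36.2 CPM between 3 and 4 UMIs. Cd52 stood at 582 CPM at 0, 651 at 3 and 243 CPM at 20 or more. Spp1 rose from 163 CPM at 0 and 224 at 3 to 280, 532 and 975 CPM in the upper bins, but the last step was not shared by library 4, with 439 CPM at 10 to 19 and 398 at 20 or more, and was largest in the 40 cells of library 3, at 2654 CPM. Lyve1, a gene of the rule, stood at 435 CPM at 0, 397 at 3 and 681 to 816 CPM from 5 UMIs on. The libraries contribute unequally to the bins, and library 4 held 107 of the 220 cells with 20 or more UMIs. Slc40a1 was therefore read by library, at 347, 401, 241 and 241 CPM for 10 to 19 UMIs and 341, 252, 168 and 220 CPM for 20 or more.

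**Figure D5:**
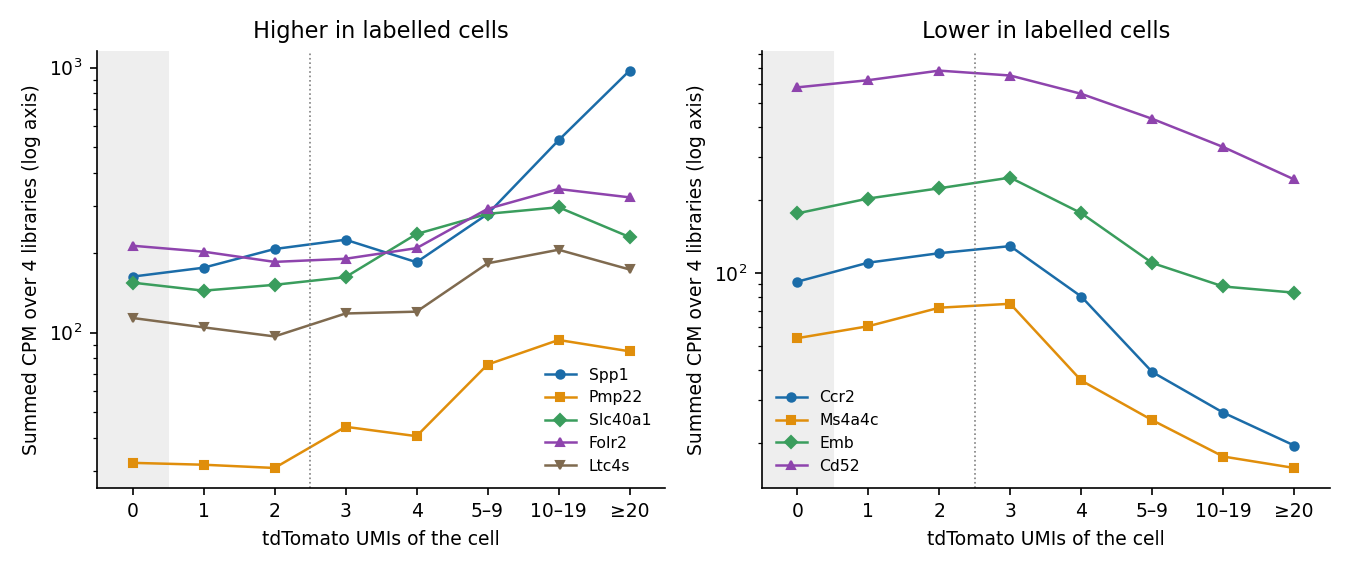
Summed CPM over the 4 libraries (y axis, logarithmic) of 5 genes higher and 4 genes lower in labelled cells, against the tdTomato UMIs of the cells (x axis). The shaded bin is the unlabelled class and the dotted line marks the threshold of 3 UMIs. At 1 to 3 UMIs Ccr2, Ms4a4c, Emb and Cd52 lie above their level at 0, and from 5 UMIs on they lie below it.

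Cells with 1 or 2 tdTomato UMIs differed from those with 0 in 317 of 11893 genes (2.67%), 1.66% higher and 1.01% lower. This comparison shares its unlabelled cells with the main one, so values are set side by side only. Cells with 1 or 2 tdTomato UMIs were also deeper, with a median of 16941 against 15351.5 UMIs. Of them 9.41% had over 30000 UMIs, against 3.95% of unlabelled cells, and the part of depth was not tested. Spp1 had 0.17 and Pmp22 0.00 in this comparison against 1.57 and 1.37 in the main one, Ccr2 had 0.27 against -1.16, and Emb 0.23 against -0.68.

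Other macrophages were taken from all cells that passed the depth, mitochondrial and Csf1r steps, whatever their Mrc1 and Lyve1 counts, so they are more than the cells that the last steps of the selection dropped. Cells of the microglia rule had more than 3 microglia genes and at most 2 Kupffer genes, and cells of the Kupffer rule the reverse, with more than 2 Kupffer and at most 3 microglia genes. At least 3 tdTomato UMIs were found in 39.0, 59.7, 74.1 and 63.8% of the 1436 cells of the microglia rule, a mean of 29.3 ± 7.79 percentage points (SD, n = 4 libraries) above the tissue macrophages of the same library. It was higher in 4 of 4 libraries (exact sign-flip permutation p = 0.125, two-sided, the smallest that 4 libraries allow). Among the 892 cells of the Kupffer rule the shares were 32.7, 39.1, 52.1 and 50.2%, which is 13.7 ± 1.46 points above (exact permutation p = 0.125, n = 4). After thinning to 8000 UMIs the Kupffer difference was 2.71 ± 6.09 points, higher in 3 of 4 libraries (exact permutation p = 0.5, n = 4), and the microglia difference was 24.6 ± 6.95.

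Labelled and unlabelled cells were compared within these cells in the same way. Of 9499 genes 358 (3.77%, 1.85% higher and 1.92% lower) differed among cells of the microglia rule, and of 8454 genes 119 (1.41%, 0.982% higher) among those of the Kupffer rule. Ccr2 had a log2 fold change of -1.92 and Emb of -0.78 in cells of the microglia rule, both past the threshold, and Folr2, Ltc4s and Pmp22 had 0.87, 0.87 and 1.47. In cells of the Kupffer rule Folr2, Ltc4s and Pmp22 had 1.09, 1.49 and 1.47, and Ccr2 had -0.56 (edgeR adjusted p = 0.099). The difference between tissue macrophages and the other cells was itself tested by an interaction term in edgeR. It passed the threshold for 10 of 11634 genes (0.086%) against the microglia rule and for 4 of 11217 (0.0357%) against the Kupffer rule, so these genes aside no difference between the kinds of macrophage was shown at this depth. Clec4n, the dectin-2 gene, stood at 207, 235, 193 and 193 CPM in labelled and 135, 161, 137 and 135 CPM in unlabelled tissue macrophages, and at 77.6, 89.0, 76.1 and 74.8 against 102, 123, 163 and 122 CPM in cells of the microglia rule. Gatm, the gene of the first enzyme of creatine synthesis, had 0.32 in tissue macrophages and -0.38 in cells of the microglia rule.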

How the data were processed

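Single-cell RNA of embryonic macrophage lineage cells was measured with a droplet-based 3-prime kit, per the labels' protocols. The deposited file is a single matrix of raw UMI counts, genes by barcodes, whose header (per the file headers) gives Cell Ranger 3.0.1 as its source. Version 2.1.1 of Cell Ranger, with mm10, stands in the submitters' processing notes. Library totals were 106500620 to 198754246 UMIs, and all counts were used as deposited.

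Counts were summed per library and class and tested with edgeR 4.0.16 (R 4.3.3), quasi-likelihood test, TMM scaling, library as block and its filter on low counts. The labelled and unlabelled cells of a library share their library, which is where the pairing comes from. Levels of tested genes are TMM-scaled CPM, and those of selection genes, lists and tdTomato bins are plain CPM. DESeq2 1.42.0 was an alternative. In counts simulated for the labelled against unlabelled comparison over 12252 genes, 42, 76, 86 and 94% of genes changed 1.25, 1.5, 2 and 4-fold were called the right way.

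Named were the 12 highest and 12 lowest genes (adjusted p under 0.05, mean of 20 CPM or more, same direction in 4 libraries, also at matched depth) without transgenes, selection, mitochondrial, ribosomal and predicted genes. Of each list the 3 most abundant members and those past the threshold by at least 1.25-fold could be named. The cells, lists and tests were chosen with earlier results of these data known. Other-type cells and cells without Ccr2 were left out in alternatives added after the data were seen. No doublet caller was run. Coordinates are GRCm38, GENCODE M21. Some list members are not reported here.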

Additional observations from a re-analysis of the deposited data

Results flagged for a closer look

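For 4 of 104 genes tested, the difference between labelled and unlabelled cells (log2 of CPM plus 1) in 1 library lay far from the other 3, which chance gives for about 1 gene in 20. Pmp22 had 1.78 in library 2 and 1.17 to 1.23 in the others. Abcg1 had 0.243 in library 4 against 0.525 to 0.577. Ccr2 had -0.658 in library 1 against -1.34 to -1.24. Cd93 had -0.713 in library 2 against -0.678 to -0.671. That gap is small, and it was flagged because the rule sets the gap against the range of the 4 libraries. All 4 libraries had the same direction for each of these genes.

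For 14 genes the log2 fold change between labelled and unlabelled cells differed between tissue macrophages and other macrophages by edgeR's interaction term with Benjamini-Hochberg adjustment. Against cells of the microglia rule, the difference (tissue macrophages minus other) was 1.165 for Clec4n (adjusted p = 0.00086), 0.692 for Gatm (0.00393), 0.743 for Cybb (0.00648) and -0.613 for Cryba4 (0.00648). It was 0.603 for Ccr1 (0.0143), 0.634 for Ms4a6c (0.0206), -0.699 for Itgam (0.0206) and -0.389 for Mtdh (0.0218). Cybb had -0.818 in cells of the microglia rule and -0.075 in tissue macrophages, and Ccr1 was lower in labelled cells of both kinds. The largest differences were -6.873 for the chemokine gene Ccl21a (adjusted p = 0.0124) and -6.382 for the resistin gene Retn (0.0437). Ccl21a belongs to a family of near-identical copies and its value is uncertain. Its difference in tissue macrophages was carried by unlabelled cells, with 2239 UMIs, 96.4% of them in 1% of the cells, against 48 UMIs in labelled cells. It was -4.01 and -3.68 in libraries 1 and 2 and -0.21 and 0.23 in libraries 3 and 4, and the fitted value went from -4.05 to 0.09 without other-type cells.

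Against cells of the Kupffer rule the differences were -0.708 for Csrp1, 1.876 for the collagen chaperone gene Serpinh1 and -0.588 for Dhrs1 (adjusted p = 0.0457 for each), and 0.545 for Igfbp4 (adjusted p = 0.0478).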

How the results depend on the processing

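The 2597 genes that differed became 4556 with classes set after thinning, 3980 without cells over 30000 UMIs, 1641 with at least 10 UMIs of Mrc1 and Lyve1, 1014 with labelled meaning at least 1 tdTomato UMI, 528 in cells without any UMI of the 13 excluded genes and 527 in cells with at most 2 UMIs of the G2 or M list. DESeq2 gave 1196, the cells without Ccr2 1350, and leaving out 1 library 1392 to 1625. With no replicate block for the library pairing it was 314. Of the 193 called list genes, 109 were called without the excluded genes, 91 in the low G2 or M cells and 35 with no replicate block. The labelled share of 28.8% was 22.9% after thinning, 53.1% for at least 1 and 24.6% for at least 5 tdTomato UMIs.

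Of 96 called genes of the text, 83 never changed sign and 27 passed the threshold in the same direction under every alternative that gave them a value, among them Spp1, Pmp22, Slc40a1, Folr2, Igf1, Ccr2, Emb and Cd52. Signs changed as follows, and the cause was not tested. With classes set after thinning, S100a9 had -0.36, BC100530 -0.048, C1qb 0.16 and F13a1 0.039. In cells with at most 2 UMIs of the G2 or M list, H19 had -0.051, Cpa3 -0.033, Hdc -0.30, Hba-a1 -0.051, Hbb-bs -0.22, Car2 -0.24 and Mmp9 -0.085. Without other-type cells Cpa3 had -0.022 and Ccl21a 0.088, and at matched depth as well C1qb had 0.055 and F13a1 0.033. Without Ccr2 and other-type cells BC100530 had -0.076 and Cybb 0.14. Matched on depth, Mrc1 and Lyve1, Cybb had 0.16. Against cells with 1 or 2 tdTomato UMIs BC100530 had -0.54. Without cells over 30000 UMIs C1qb had 0.047, without the excluded genes Cryba4 had 0.003, and with at least 10 UMIs of Mrc1 and Lyve1 Isg15 had 0.10. Genes below about 20 CPM rest on few UMIs in the smaller selections.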
